A study of Drosophila melanogaster with 28 samples.

Results

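The transposon tables of this ovary study list 176 transposon families, and 53 of them carry a 4-letter code of a Drosophila species other than D. melanogaster in front of the element name. These 53 families were taken by that name pattern alone, so no measured value chose them. They fall under 22 codes, with 13 families of code Dbuz (D. buzzatii), 10 of Dvir (D. virilis), 4 of Dmir (D. miranda) and 3 of Dsub (D. subobscura). The other 123 families carry no such prefix. RNA from whole dissected ovaries of D. melanogaster was measured in 22 libraries. In 18 of them double-stranded RNA was driven in germline cells by nos-GAL4, with 1 target gene and 1 library each. The targets were rhi, del, cuff, piwi, CG3893, mael, armi, zuc, gasz, shu, aub, vasa, spn-E, tej, squ, ars2, U2A and Yb. The w knockdown, with the same driver against an eye pigment gene, has 2 libraries, and ovary without a knockdown has 2. Flies of all groups were raised at 25 °C and given yeast paste. Whole ovaries hold somatic follicle cells in which nos-GAL4 is not active, and how far each target was depleted was not analysed here. With 1 library per gene, the effect of a knockdown cannot be told apart from other differences between that library and the w libraries.

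Transposons are DNA segments that copy or move themselves within a genome. Retrotransposons move through an RNA copy and are divided into those with long terminal repeats (LTR) and those without (non-LTR), while DNA transposons are cut out and reinserted. In the germline they are silenced by piRNAs, small RNAs bound to PIWI proteins. In flies, the chromatin factors rhi, del and cuff act on the loci that make piRNA precursors. The helicase armi, the nuclease zuc, the mitochondrial protein gasz and the co-chaperone shu act in piRNA formation, and aub, vasa, spn-E, tej and squ act in the perinuclear nuage. The nuclear PIWI protein piwi, CG3893 (asterix) and mael act in silencing at the chromatin. Yb acts in follicle cells, ars2 with the cap-binding complex and U2A in splicing. A family name with a species prefix marks the species in which the reference sequence was described. A score under it is the authors' value for that reference. The sources used here do not say how reads matching more than 1 family were assigned, so scores of near-identical families are uncertain.

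Genome-mapped reads per library ranged from 2026093 in the gasz knockdown to 20185962 in the tej knockdown, with 3831461 and 3037471 in the w libraries and 11395525 and 6733164 in the ovary libraries. The deposited score of a family is a whole number whose scale is not given. It is not known to be per length, so scores are not ranked between families, and counts at a minimum score and sums over families depend on that unknown scale. Whether replicate libraries came from separate flies is not given, so p-values measure the spread between these libraries. Read as raw counts, the scores of the 2 ovary libraries had 0.598 times the counting variance over 135 families and those of the 2 w libraries 2.64 times over 123 families. Read as values scaled to a fixed number of mapped reads, these ratios were 4.97 and 8.85, so in both readings the ovary pair lay closer than the w pair.

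Detection was examined first. Of the 53 families, 28 had a score of 10 or more in every library that lists them, 14 in some libraries and 11 in none. Of the 123 families without a prefix, 108 reached 10 in every library and 3 in none. No member was at 0 in all libraries. The 11 families under 10 throughout, and also Dbuz_BuT5 and Dbuz_INE-1, which reached 10 in 1 library each, were not tested, and 40 members were kept. The highest score of any library was 2 for Dhyd_Bungy, 3 for Dbuz_Kepler and Dwil_Vege, 5 for Dvir_Dv and Dwil_Mar, 6 for Dbuz_BuT4, Dbuz_Newton, Dkoe_Gandalf and Dsub_SGM, 7 for Dbuz_ISBu3 and 8 for Dbuz_ISBu2. The gasz library does not list Dhyd_Bungy.

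**Figure D1:**
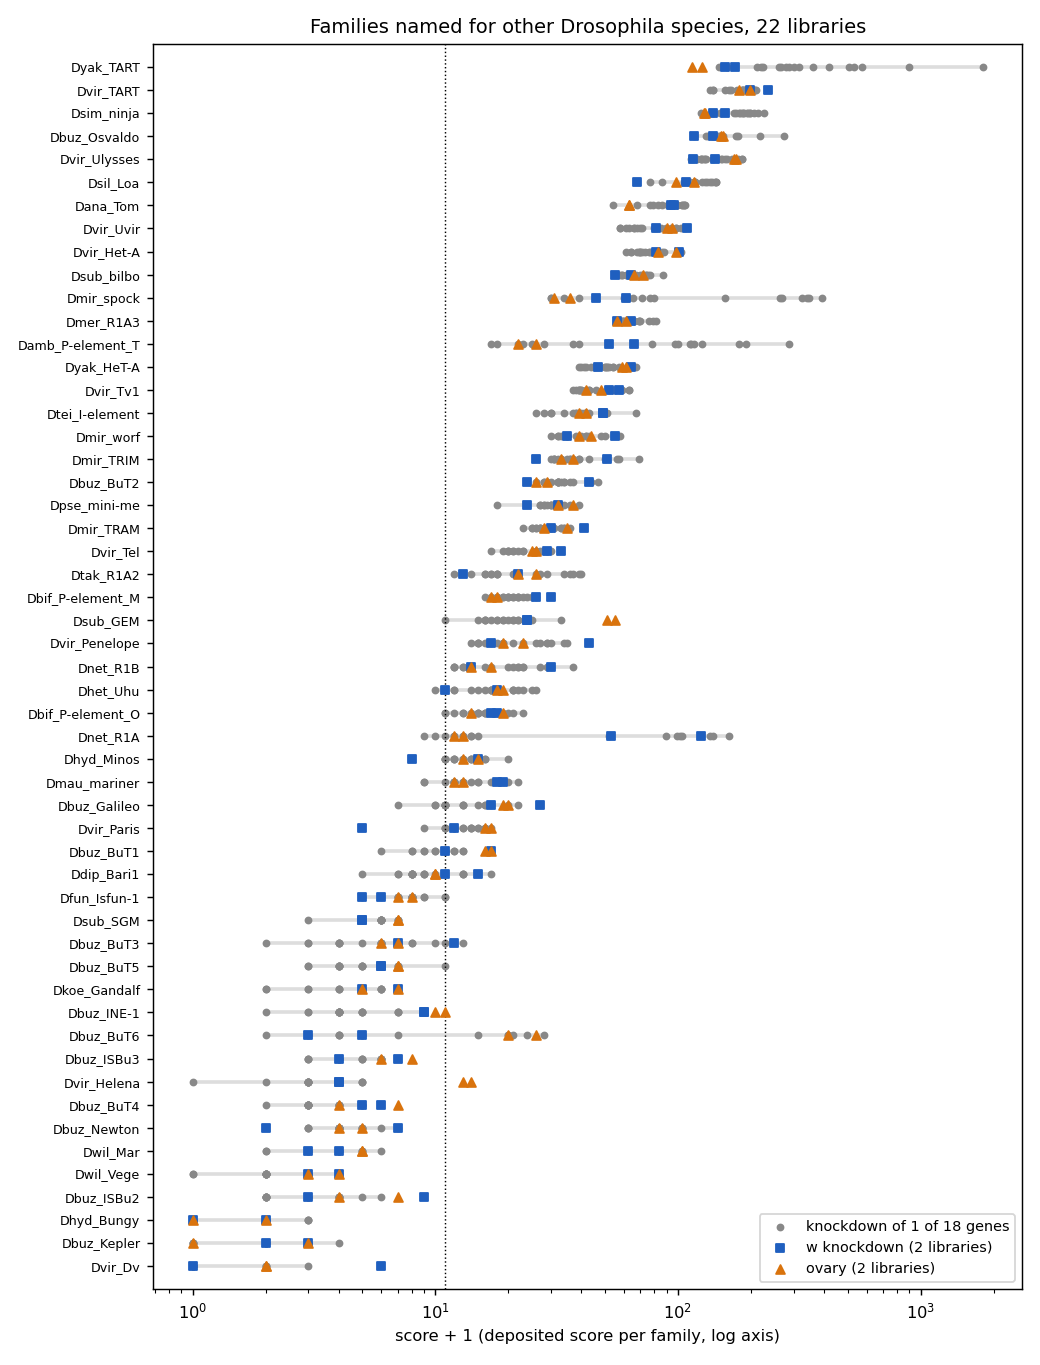
Score + 1 on a log axis for each of the 53 families (rows, in order of their median over libraries). Grey points are the 18 knockdowns, blue squares the 2 w libraries and orange triangles the 2 ovary libraries; the dotted line marks a score of 10. Most families keep to a narrow range, whereas Dyak_TART reaches 1806, Dmir_spock 393, Damb_P-element_T 286 and Dnet_R1A 162.

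In every knockdown except Yb the summed score of the 53 families lay nearer to its mean in w than that of the other families did. It lay between 1794 (tej) and 4147 (zuc) in the 18 knockdowns with a median of 2422.5, against 1950 and 2290 in the w libraries, and 2047 and 1898 in the ovary libraries. Relative to the mean of the w libraries the sum of the 53 families was 0.846 to 1.96 in the knockdowns, with a median of 1.14. The sum of the 123 other families was 0.955 to 6.36 times w, with a median of 2.87, and was under 2 times w in 7 knockdowns (rhi, aub, tej, squ, ars2, U2A and Yb). The highest value of the 53 families, in the zuc knockdown, rested on Dyak_TART, whose score there was 1806. Without Dyak_TART the sums were 0.836 to 1.24 times w, with a median of 1.07. The 53 families therefore made up 3.81% of all transposon scores in the shu knockdown and 17.4% in the Yb knockdown, against 12.7% and 18.2% in the w libraries and 17.7% and 17.3% in the ovary libraries.

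**Figure D2:**
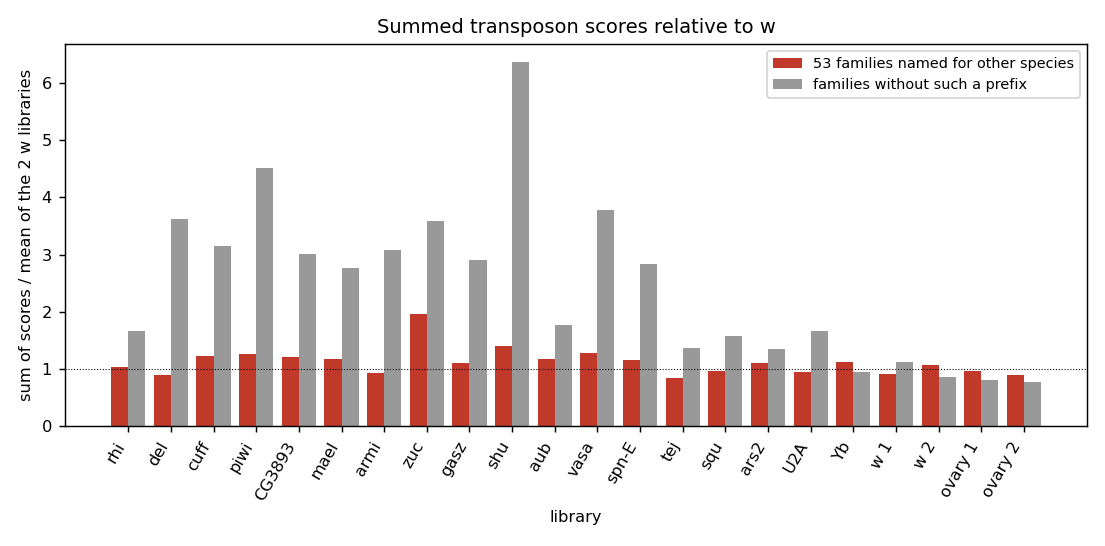
Sum of scores in each library divided by the mean of the 2 w libraries (dotted line at 1), for the 53 families named for other species (red bars) and the 123 other families (grey bars). The red bars lie between 0.846 and 1.96 in the knockdowns, and the grey bars reach 4.52 for piwi and 6.36 for shu.

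Each knockdown library was compared with the w libraries to ask in which of these families the score differed. Of 720 tests of a kept member in a knockdown, 20 were called higher and 11 lower by limma at a Benjamini-Hochberg adjusted p under 0.05, on log2(score + 1). Over all 159 families kept, 9.15% of 2862 tests were called higher and 0.454% lower, which is 262 and 13 calls. The members thus held 2.78% higher calls, against 11.3% among the families without a prefix, and 11 of the 13 lower calls. Of these 11 calls 4 were of Dnet_R1A, which was at 52 and 124 in w and at 12 and 11 in ovary. Dvir_Helena held 2, Dbuz_BuT3 1 and Dbuz_Galileo 1, each at a score of 6 or less in the knockdown. Damb_P-element_T held 2 and Dsub_GEM 1. A change of at least 4-fold outside both w libraries, a description with no test, was found in 14 member cases upward (1.94%) and 12 downward (1.67%). Over all families the shares were 6.32% upward and 0.419% downward. Among the lower 4-fold changes 12 of 12 were members, and 10 of these were Dnet_R1A. The median log2 difference of the members lay between -0.23 and 0.05 over the 18 knockdowns, and that of all families between -0.29 and 0.52. After median-ratio scaling the members' medians were -0.63 to 0.13 and those of all families -0.12 to 0.04, and after quantile normalization -0.41 to 0.10 and -0.09 to 0.00. In zuc, the members' median was -0.16 as deposited, -0.63 after median-ratio scaling and -0.41 after quantile normalization. A lone knockdown library is assumed to vary like the w and ovary pairs, and the calls lean on the close ovary pair: without ovary replicate 1, or without ovary replicate 2, no member and no family was called in either direction. Without w replicate 1 the counts were 29 higher and 48 lower among members and 403 and 96 among all families, and without w replicate 2 they were 9 and 19 and 209 and 49. Quantile normalization left 3 higher and 0 lower calls of members, of 70 and 18 in all. Over single knockdowns the share of all families called higher ran from 0% (tej, squ and U2A) to 20.8% (piwi, zuc and shu), and the zuc knockdown held the most calls of members, 4 higher and 2 lower of 40.

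The telomeric elements came from D. yakuba and D. virilis. In flies, the non-LTR elements HeT-A, TART and TAHRE maintain chromosome ends in place of telomerase. Dyak_TART was the member with the most calls, 7 of 18 knockdowns, all higher. Its score was 278 in rhi, 218 in del and 418 in cuff, 571 in piwi, 301 in CG3893 and 529 in mael. In the knockdowns of genes of piRNA formation it was 316 in armi, 1806 in zuc, 504 in gasz and 899 in shu. It was 260 in aub, 286 in vasa, 358 in spn-E, 159 in tej, 265 in squ, 223 in ars2, 210 in U2A and 147 in Yb, against 156 and 171 in the w libraries and 125 and 113 in the ovary libraries. The zuc and shu libraries stood highest, 16 of 18 knockdowns lay above both w libraries, tej lay between them and Yb below both. The log2 difference from w, on the scale of score + 1, was 3.46 in zuc (SE 0.22, adjusted p = 0.00238) and 2.45 in shu (SE 0.22, adjusted p = 0.00262). It was 1.80 in piwi, 1.69 in mael, 1.62 in gasz, 1.35 in cuff and 1.13 in spn-E (adjusted p = 0.0360, the highest of the 7). After quantile normalization none of the 7 was called, and the difference was 1.69 in zuc and 0.38 in shu. Without w replicate 1 it was called in 4 knockdowns, without w replicate 2 in 3 and without either ovary library in 0.

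The D. melanogaster elements HeT-A and TAHRE had larger differences in most of the same libraries. In shu they stood at 6.02 and 4.30, in piwi at 5.43 and 3.39 and in zuc at 4.72 and 3.84. In the aub knockdown, where Dyak_TART stood at 0.67, HeT-A and TAHRE stood at -0.09 and 0.06. Over the 20 nos-GAL4 libraries log2 scores of Dyak_TART and TAHRE had a Pearson r of 0.84 (permutation p = 1e-05, adjusted p = 0.00011) and a Spearman rho of 0.90 (permutation p = 1e-05, adjusted p = 0.00011). With HeT-A, r was 0.81 and rho was 0.89, each with the same permutation p, the smallest that 100000 permutations can give. Without the 2 libraries farthest from the median of the D. melanogaster family, r was 0.83 with TAHRE and 0.76 with HeT-A. TAHRE and HeT-A ranked 1 and 2 among the 119 families without a prefix by their r with Dyak_TART, followed by the LTR family GATE (0.79). No TART family without a species prefix is listed, so Dyak_TART could not be compared with a TART of D. melanogaster. Whether reads of a D. melanogaster TART were scored under Dyak_TART or Dvir_TART was not tested.

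The other telomeric members did not move this way. Dvir_TART had scores of 134 (del) to 208 (shu) in the knockdowns with a median of 183.5, against 198 and 235 in the w libraries and 197 and 178 in the ovary libraries. No knockdown lay above both w libraries, 13 of 18 lay below both, and none was called. Dyak_HeT-A had 38 (del) to 66 (Yb), with a median of 49.0, against 46 and 63 in w and 60 and 58 in ovary. Dvir_Het-A had 60 (aub) to 102 (cuff), with a median of 73.5, against 80 and 100 in w and 97 and 82 in ovary. For these 3 members r with HeT-A was -0.08, -0.16 and -0.25, with adjusted permutation p-values of 0.862, 0.720 and 0.497 and Spearman rho of -0.04, -0.12 and -0.22 (adjusted permutation p = 0.978, 0.900 and 0.603). After median-ratio scaling the 3 values of r were -0.57, -0.54 and -0.59, and all 3 passed (adjusted permutation p = 0.0326, 0.0415 and 0.0326). That scaling also moved the members' median log2 difference, from -0.16 to -0.63 in zuc and from 0.05 to -0.48 in piwi. It raised that median in rhi, del, tej and Yb and lowered it in the other knockdowns. The part of this shift in the 3 values of r was not tested.

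**Figure D3:**
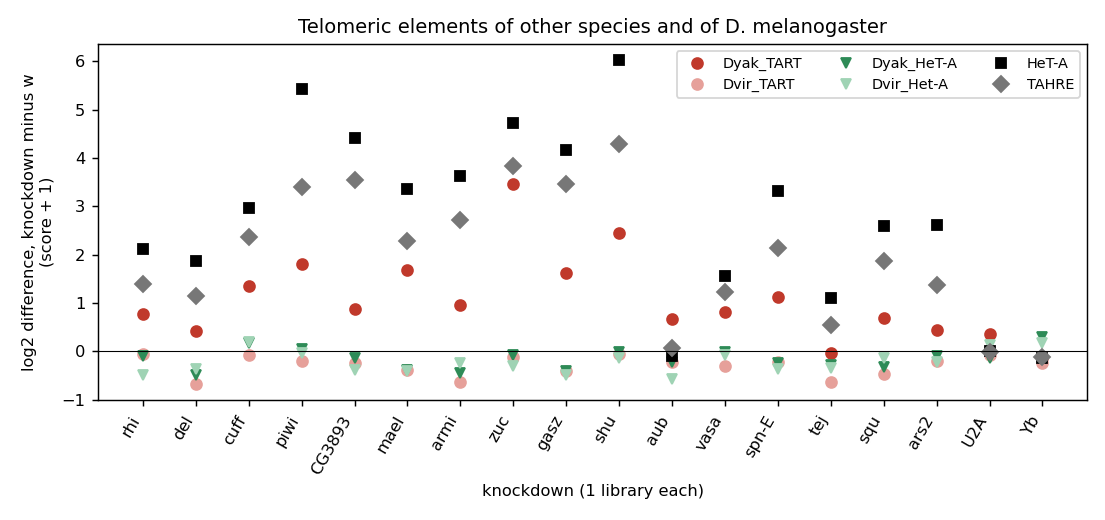
log2 difference from w (score + 1) in each of the 18 knockdowns for Dyak_TART, Dvir_TART, Dyak_HeT-A and Dvir_Het-A and for the D. melanogaster elements HeT-A and TAHRE. Dyak_TART reaches 3.46 in zuc and 2.45 in shu, and the other 3 members stay between -0.68 and 0.29 while HeT-A reaches 6.02.

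Dmir_spock, named for D. miranda, was called higher in 6 knockdowns. Its score was 155 in rhi, 33 in del, 61 in cuff, 64 in piwi, 339 in CG3893 and 76 in mael. It was 29 in armi, 346 in zuc, 79 in gasz, 60 in shu, 325 in aub, 393 in vasa and 262 in spn-E. It was 29 in tej, 59 in squ, 268 in ars2, 38 in U2A and 70 in Yb, against 45 and 60 in the w libraries and 35 and 30 in the ovary libraries. The libraries were divided at the widest break into 2 ranges, 7 knockdowns at 155 to 393 and the other 13 nos-GAL4 libraries at 29 to 79. This break was 0.96 on the log2 scale, just under the minimum of 1 set for separate ranges. The high range joins targets of different roles, rhi of the piRNA loci, CG3893 of nuclear silencing, zuc of piRNA formation, aub, vasa and spn-E of the nuage, and ars2. Partners within a role were divided, since del and cuff were in the low range with piwi, mael, armi, gasz and shu, and so were tej and squ of the nuage. The cause of this division was not tested. The log2 difference was 2.89 in vasa (SE 0.26, adjusted p = 0.00749), 2.71 in zuc (adjusted p = 0.00522), 2.68 in CG3893, 2.62 in aub, 2.34 in ars2 and 2.31 in spn-E. It was called in 4 knockdowns without w replicate 1, in 2 without w replicate 2 and in 0 without either ovary library.

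The D. melanogaster family most like Dmir_spock was Rt1b, a non-LTR element. Rt1b had scores of 1189 to 2904 in the 7 libraries of the high range and 114 to 576 in the 13 others, so its ranges did not overlap either. Within the 13 libraries of the low range r between the 2 families was 0.56, and within the 7 of the high range it was 0.84. The next most alike were the LTR families gypsy7, with 0.58 and 0.89, and gypsy, with 0.43 and 0.91. These values describe likeness over libraries that share their total read number with both families, and the alike families were picked as the highest of 119.

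Damb_P-element_T bears the name of the P element, a DNA transposon that entered D. melanogaster in recent times. Its score was 77 in rhi, 17 in del, 27 in cuff, 190 in piwi, 112 in CG3893 and 36 in mael. It was 16 in armi, 115 in zuc, 38 in gasz, 111 in shu, 125 in aub, 178 in vasa and 99 in spn-E. It was 21 in tej, 24 in squ, 96 in ars2, 22 in U2A and 286 in Yb, against 51 and 65 in the w libraries and 25 and 21 in the ovary libraries. No knockdown lay between the w libraries: 10 lay above both and 8 below both. It was called higher in Yb with a log2 difference of 2.29 (SE 0.25, adjusted p = 0.0369), in piwi with 1.71 and in vasa with 1.61, and lower in armi with -1.78 (SE 0.25, adjusted p = 0.0178) and in del with -1.70. Leaving out any 1 of the w or ovary libraries left 0 calls.

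The D. melanogaster P-element did not share this pattern. It had scores of 10 (gasz) to 28 (vasa) in the knockdowns, against 19 and 22 in w and 16 and 14 in ovary, and its r with Damb_P-element_T was -0.04 (rho 0.00; adjusted permutation p = 0.862 and 0.996), which ranked 92 of 119. The most alike family was Fw2, a non-LTR element, with r = 0.94 over the 20 libraries and 0.96 over the 18 knockdowns, followed by gypsy7 (0.84) and gypsy (0.78). Fw2 was at 466 in Yb, 359 in vasa, 318 in piwi, 35 in armi and 38 in del, against 43 and 61 in w. The 2 P-element families of D. bifasciata varied less. Dbif_P-element_M had 15 (armi) to 25 (cuff) in the knockdowns against 25 and 29 in w and 17 and 16 in ovary, and Dbif_P-element_O had 10 (squ and ars2) to 22 (piwi) against 16 and 17 in w and 18 and 13 in ovary. For both P-element names of D. bifasciata no knockdown was called.

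Dnet_R1A belongs to R1, a non-LTR element that inserts into ribosomal RNA genes. Its score was 12 in rhi, 51 in del, 162 in cuff, 103 in piwi, 8 in CG3893 and 135 in mael. It was 11 in armi, 9 in zuc, 101 in gasz, 98 in shu, 13 in aub, 14 in vasa and 12 in spn-E. It was 13 in tej, 88 in squ, 11 in ars2, 10 in U2A and 138 in Yb, against 52 and 124 in the w libraries and 12 and 11 in the ovary libraries. It showed the widest break between libraries of any member kept, with 10 nos-GAL4 libraries at 8 to 14 and 10, among them both w libraries, at 51 to 162. Both ovary libraries lay with the low ones. All 10 low libraries were at least 4-fold below w, and 4 of them were called: CG3893 at -3.18 (SE 0.55, adjusted p = 0.0264), zuc at -3.02, armi at -2.76 and spn-E at -2.65. Without w replicate 1 there were 10 calls, without w replicate 2 there were 5 calls, and without either ovary library 0.

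R1A1-element, the R1 of D. melanogaster, was not split. It had 81 (rhi) to 347 (piwi) in the knockdowns, against 145 and 122 in w and 129 and 130 in ovary, and was called higher in piwi (1.38), gasz (1.20) and shu (1.07). Within the 10 low libraries of Dnet_R1A its r with R1A1-element was -0.21 (permutation p = 0.560; rho -0.16, permutation p = 0.660), and within the 10 high libraries it was 0.28 (permutation p = 0.423; rho 0.01, permutation p = 1). The other R1 members moved less. Dmer_R1A3 had 56 (rhi and Yb) to 80 (vasa) with a median of 62.5, against 55 and 63 in w and 60 and 55 in ovary. Dnet_R1B had 11 to 36 (mael), against 13 and 29 in w and 16 and 13 in ovary, and Dtak_R1A2 had 11 (del) to 39 (vasa), against 21 and 12 in w and 25 and 21 in ovary. None of these 3 was called in any knockdown.

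Dbuz_BuT6, a DNA transposon of D. buzzatii, was high in a further set of libraries. Its score was 27 in rhi, 6 in del, 2 in cuff, 4 in piwi, 2 in CG3893 and 4 in mael. It was 3 in armi, 20 in zuc, 1 in gasz, 3 in shu, 23 in aub, 2 in vasa and 19 in spn-E. It was 4 in tej, 4 in squ, 19 in ars2, 14 in U2A and 3 in Yb, against 2 and 4 in the w libraries and 25 and 19 in the ovary libraries. The 6 high knockdowns were at 14 to 27, nearer to the ovary than to the w libraries, and the other 14 nos-GAL4 libraries were at 1 to 6. The differences called were 2.85 in rhi (SE 0.40, adjusted p = 0.0482), 2.44 in zuc and 2.37 in spn-E, and leaving out any 1 of the w or ovary libraries left 0 calls. The 5 other families of that series, Dbuz_BuT1 to Dbuz_BuT5, reached at most 16, 46, 12, 6 and 10 in any library. Of them Dbuz_BuT3 was called, lower in CG3893 with a score of 1 against 6 and 11 in w, with 2 calls without w replicate 1 and 0 without w replicate 2 or either ovary library. Dbuz_BuT6 was under 10 in both w libraries, so it was kept through the libraries in which it was high.

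The high libraries of these members were set side by side. None of the 10 high libraries of Dnet_R1A was among the 7 of Dmir_spock or the 6 of Dbuz_BuT6. Those of Dmir_spock and Dbuz_BuT6 shared 5 libraries, rhi, zuc, aub, spn-E and ars2, which is 5 of 7 and 5 of 6. The armi, tej and U2A libraries were low for both Dnet_R1A and Dmir_spock, as were both ovary libraries. The 7 high libraries of Dmir_spock had 2429481 (CG3893) to 7550277 (rhi) genome-mapped reads and its 13 low ones 2026093 (gasz) to 20185962 (tej), so depth overlapped between the ranges.

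**Figure D4:**
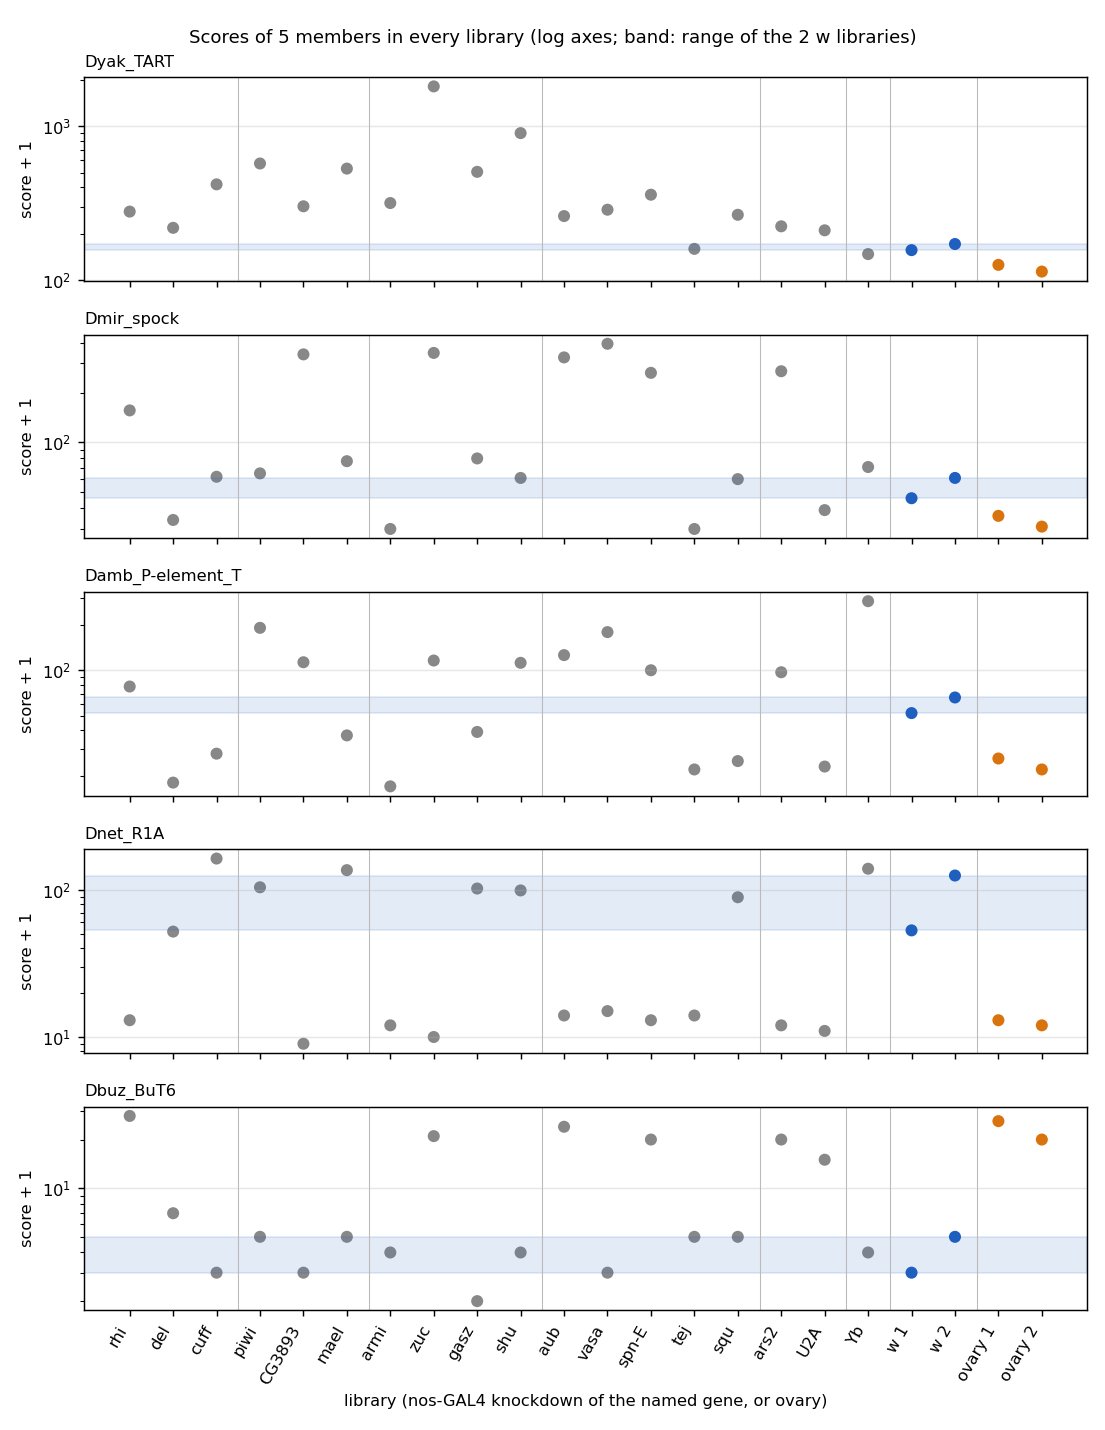
Score + 1 (log axes, 1 panel per family) of Dyak_TART, Dmir_spock, Damb_P-element_T, Dnet_R1A and Dbuz_BuT6 in each library. Grey points are knockdowns, separated by thin lines into targets of like role, blue points the w libraries with a band over their range, and orange points the ovary libraries. Dnet_R1A is at 8 to 14 in 10 knockdowns, where Dmir_spock and Dbuz_BuT6 hold all their high libraries.

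Among LTR members, Dbuz_Osvaldo had a score of 272 in zuc and 217 in cuff and 116 (gasz) to 176 (tej) in the other knockdowns, with a median of 146.5 over all 18, against 116 and 138 in the w libraries and 153 and 150 in the ovary libraries. It was called in zuc alone, with a log2 difference of 1.10 (SE 0.21, adjusted p = 0.0269), which was 0.05 and not called after quantile normalization. The D. melanogaster Osvaldo had 23 in zuc and 20 in cuff, against 18 and 23 in w. Dsim_ninja had 123 (tej) to 226 (CG3893) with a median of 183.5, against 155 and 139 in w and 127 and 128 in ovary, and 14 of 18 knockdowns lay above both w libraries. Dvir_Ulysses had 112 (piwi) to 183 (CG3893) with a median of 134.5, against 114 and 141 in w and 170 and 172 in ovary. Dana_Tom had 53 (tej) to 106 (CG3893) with a median of 90.5, against 93 and 95 in w and 62 in both ovary libraries. None of these 3 was called in any knockdown.

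Of the remaining members with a mean of 50 or more over the w and ovary libraries, none was called either. Dsil_Loa had 76 (piwi) to 143 (vasa) with a median of 117, against 107 and 67 in w and 115 and 97 in ovary. Dsub_bilbo, of the same group of non-LTR elements, had 57 (zuc) to 86 (U2A) with a median of 65.5, against 63 and 54 in w and 71 and 65 in ovary. Dvir_Uvir had 57 (CG3893 and aub) to 106 (ars2) with a median of 74.5, against 80 and 108 in w and 94 and 89 in ovary, and no knockdown lay above both w libraries.

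The D. melanogaster families most like the other members described were also listed, as the highest r of 119 over the 20 nos-GAL4 libraries and with no test. For Dsim_ninja they were G-element (0.79), gypsy11 (0.70) and Tc1-2 (0.69). For Dsub_bilbo they were Tirant (0.75), blood (0.54) and looper1 (0.39). For Dsil_Loa they were gtwin (0.73), gypsy6 (0.72) and BS (0.63). Dvir_Ulysses shared the first pair of these, with gtwin at 0.70, gypsy6 at 0.70 and G5 at 0.66. Dmer_R1A3 was most like Tc1-2 (0.69), Rt1a (0.66) and X-element (0.64), and Dana_Tom most like INE-1 (0.61), Rt1c (0.58) and gypsy11 (0.53). Among telomeric members, Dvir_TART was most like INE-1 (0.64), Porto1 (0.57) and rooA (0.56). Dyak_HeT-A was most like Tom1 (0.49), HB (0.49) and Fw2 (0.47), and Dvir_Het-A most like transib4 (0.48), G3 (0.47) and frogger (0.42), so no telomeric family was among the 3 of any of them. Dvir_Uvir was most like Tom1 (0.59), G3 (0.41) and transib1 (0.30), and Dbuz_Osvaldo most like diver (0.39), gypsy8 (0.38) and gypsy6 (0.38). For Dnet_R1A, r was taken within its low and its high range, of 10 libraries each. It was -0.70 and 0.71 with frogger, 0.17 and 0.38 with transib4 and -0.12 and 0.01 with BS3. In the low range Dnet_R1A was at only 8 to 14 and frogger at 19 to 24. For Dbuz_BuT6 r within the low and the high range was -0.37 and 0.65 with Rt1b, -0.31 and -0.39 with ZAM and -0.17 and 0.14 with S2. Its low range holds 14 libraries at scores of 1 to 6 and its high range only 6 libraries, so these values are uncertain.

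The calls not yet given were all lower and came from 3 members. Dsub_GEM was at 10 in armi, against 23 in both w libraries, a log2 difference of -1.13 (SE 0.21, adjusted p = 0.0340). Dbuz_Galileo was at 6 in gasz, against 16 and 26 in w, a difference of -1.61 (SE 0.35, adjusted p = 0.0495). Dvir_Helena, a non-LTR element, was listed at 0 in gasz and at 1 in zuc, against 3 in both w libraries, and was called in both. It had scores of 4 or less in all 20 nos-GAL4 libraries and was kept through the 2 ovary libraries alone, and gasz was the shallowest library. Without w replicate 1 there were 12 calls of Dbuz_Galileo, 2 of Dvir_Helena and 0 of Dsub_GEM, without w replicate 2 there was 1 of each, and without either ovary library 0.

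Which members follow their D. melanogaster relatives was asked in 22 pairs of 20 members, set by name (such as Dtei_I-element and I-element) or by known group (such as Dsim_ninja and aurora-element). Over the 20 nos-GAL4 libraries 2 pairs passed after adjustment over the 22, both of Dyak_TART, and the same 2 passed by Spearman rho. The permutation test asks only whether r differs from 0, and GATE, not set as a relative, had r = 0.79 with Dyak_TART. The other pairs, Dnet_R1A left aside, had r between -0.29 (Dbif_P-element_O and P-element) and 0.50 (Dtei_I-element and I-element). The relative ranked in the top 10 of 119 families in 3 pairs, the 2 of Dyak_TART and that of Dtei_I-element at 6. For that pair rho was 0.25 (adjusted permutation p = 0.567, against 0.156 for r), and r was 0.05 without the shu and piwi libraries, so that it rests on those. I-element had 838 in shu and 292 in piwi, against 155 and 100 in w, and Dtei_I-element had 66 and 49, against 48 in both w libraries. Dsim_ninja and aurora-element had r = 0.49 (rho 0.41; adjusted permutation p = 0.156 and 0.410), and 0.29 without 2 libraries. After median-ratio scaling 7 pairs passed. The added ones were Dbif_P-element_M with P-element at 0.61 and 4 telomeric pairs with negative r. That scaling also shifted the members' medians, as given above.

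**Figure D5:**
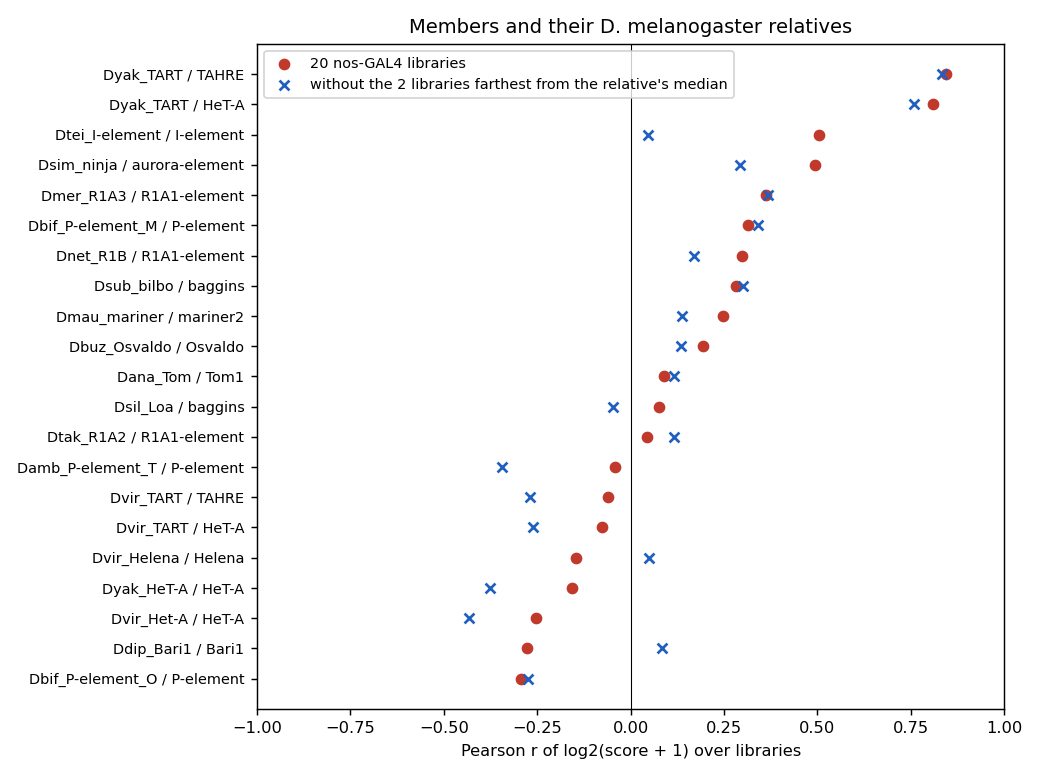
Pearson r over the 20 nos-GAL4 libraries between each member and its D. melanogaster relative (red points) and without the 2 libraries farthest from the relative's median (blue crosses), for the 21 pairs whose member did not fall into separate ranges. The 2 pairs of Dyak_TART stand at 0.84 and 0.81, and the next pair, Dtei_I-element and I-element, at 0.50, and at 0.05 without those libraries.

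The w knockdown was compared with ovary, the only comparison with 2 libraries on each side. By limma 0 of 159 families were called at an adjusted p under 0.05, and at an unadjusted p under 0.05 there were 28, among them 9 of the 40 members. Without w replicate 1 there were 8 calls, 3 of them members, and without w replicate 2 there was 1, of no member. The w libraries lay above both ovary libraries in 13 of the 40 members and below both in 8 of the 40. Over all 159 families kept these counts were 68 (42.8%) and 13 (8.18%). The largest differences of members were in families already described. Dnet_R1A stood at 52 and 124 in w and 12 and 11 in ovary, which is 2.70 on the log2 scale (SE 0.45, adjusted p = 0.0575). Dbuz_BuT6 stood at 2 and 4 in w and 25 and 19 in ovary, which is -2.56 (SE 0.33, adjusted p = 0.0575). Dvir_Helena stood at 3 in both w libraries and 13 and 12 in ovary, and in none of the 18 knockdowns did it exceed 4. Since it was kept through the ovary libraries alone, its difference is a description, although it is counted among the 9. Dsub_GEM stood at 23 in both w libraries and 54 and 50 in ovary, with -1.14 (adjusted p = 0.0575), and its highest knockdown was shu at 32. Damb_P-element_T stood at 51 and 65 in w and 25 and 21 in ovary, with 1.29 (adjusted p = 0.0575).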

How the data were processed

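The deposited transposon values are a score, a whole number per family. The sources used here give neither its unit nor whether the authors scaled it for depth. Per the submitters' processing notes, CASAVA 1.3, Bowtie, TopHat, Cufflinks and the build dm3 were used, and the mapping rule for transposons is not given. Per the labels, 5 ug of total RNA was depleted of ribosomal RNA.

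The 159 of 176 families that reached a score of 10 in 2 or more of the 22 libraries were analysed as log2(score + 1), which understates changes at low scores. limma 3.58.1 in R 4.3.3 (lmFit, eBayes with trend) was fitted with 1 coefficient per group and 2 residual degrees of freedom, 2-sided, with Benjamini-Hochberg adjustment over all families in each comparison. It was tested on simulated data in which a lone library varied like all others, so that assumption was not checked. Correlations used 100000 permutations, 2-sided. Relatives were set from names and known groups. Members described in full had a mean of 50 or more over the w and ovary libraries, 3 or more calls, or 1 of the 5 largest differences, which gave 16, given in every library or by their lowest, median and highest knockdown, each with the 3 most alike families. Others are given by range, and those named outside this rule were chosen after their values were seen. The members and lists were chosen with earlier results of these data known. Counting intervals are not given because the scale is unknown. The gene tables of 8 libraries hold no transposon family and were not used.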

Additional observations from a re-analysis of the deposited data

How the results depend on the processing

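Since the scale of the scores is unknown, depth limits the low ones to an unknown degree, most in the gasz library with 2026093 reads. The calls lean on the spread of the ovary pair. With the w and knockdown libraries alone, all 4 counts of calls over the 18 knockdowns (members higher and lower, all families higher and lower) were 0, against 20, 11, 262 and 13. Leaving out 1 of the w or ovary libraries gave 0 to 29 and 0 to 48 calls of members higher and lower, and 0 to 403 and 0 to 96 of all families. The cause was not tested. Quantile normalization gave 3, 0, 70 and 18, and median-ratio scaling 27 lower calls of all families; these scalings brought the median of all families to between -0.09 and 0.00 and between -0.12 and 0.04, against -0.29 to 0.52 as deposited, and calls were then 79.5% and 90.0% higher, against 95.3% (members 100% and 55.6%, against 64.5%). A pseudocount of 5 gave 6 lower calls of members and 8 of all families, and a minimum of 50 gave 17 and 28, with fewer families tested. No called difference of a member reversed under any setting run. Leaving out ovary libraries, or changing the trend or the filter, cannot alter a difference from w, so only the other settings could show a reversal. Without the trend, and with a pseudocount of 0.5, all 31 calls of members were kept, against 24 with median-ratio scaling and 18 with no filter.

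For w minus ovary the count of 0 was 2 members and 2 families with a pseudocount of 5, 2 and 4 with the minimum of 50, 1 and 1 with median-ratio scaling, and 1 and 1 without the trend. Leaving out 1 library gave 0 to 3 members and 0 to 8 families. With the replicate number as a block it was 6 members and 16 families. Deviations of same-numbered w and ovary libraries correlated at 0.04. Whether same-numbered libraries share a preparation is not given, and this correlation cannot decide it.

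At 2-fold and 8-fold, both chosen after seeing the data, the counts moved: at 2-fold 36 member changes were higher and 33 lower, of 396 and 57 over all families, and at 8-fold 1 and 2, of 96 and 2. At a minimum score of 1, 48 members were detected in every library, and at 50, 11 in every library and 20 in at least 2. The count of pairs passing was 2 in every setting run except median-ratio scaling (7). The sign of r changed in 6 pairs under median-ratio scaling, in 4 over the 18 knockdowns without w, and in 0 with a pseudocount of 5 or without the zuc knockdown.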
